A study of Mus musculus with 26 samples.

Results

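The regions described here are stretches of open chromatin that carried an ATAC-seq peak in both libraries of epiblast stem cells (EpiSC) kept in AFX medium and in none of 4 libraries of epiblast-like cells (EpiLC), all from the Rd2 set of the study. The 8 Rd2-set peak lists merged into 35442 union regions, of which 7519 had a peak in both Rd2_AFX lists. Of these, 144 regions (1.92%) had no peak in any EpiLC list. They were selected on the presence and absence of Rd2 peaks, so that contrast is a description and was not tested. Only 1 of the 144 regions, at the start of Mipep, which encodes a mitochondrial peptidase, also had a peak in an Rd2_ES list, but those lists were very short.

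The study profiled accessible chromatin in mouse pluripotent cells by ATAC-seq, in which a transposase inserts adapters into open DNA, from 50000 cells a library. Rd2_AFX cells were EpiSC in AFX at passage 16 (2 libraries), Rd2_EpiLC cells had been induced from ES cells for 2 days in AF medium with KSR and sorted for low GFP (4 libraries), and Rd2_ES cells were in 2iL at passage 33 (2 libraries). Rd2 titles carry the mark WT, and the EpiLC titles number 2 cell samples with 2 libraries each, which may not be independent. A first set of libraries, 3 to a group, played no part in choosing the regions. It held formative stem (FS) cells in A3XR medium as FS1 at passage 21 and FS2 at passage 29, EpiSC in AF at passage 22 (EpiSC_AF), EpiSC in AFX at passage 14 (EpiSC_AFX1) and at passage 16 (EpiSC_AFX2), and ES cells in 2iL at passage 16. The labels expand neither the media names nor the reporter behind the GFP sort, and they do not say whether libraries of a group came from separate cultures or whether Rd2_AFX shares a line with a first-set group. The p-values below therefore measure the spread between these libraries, which may be technical.

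Pluripotency passes through naive, formative and primed states. ES cells in inhibitor medium hold the naive state, EpiLC are a transient population formed from ES cells on the way out of it, FS cells are stable lines grown as a formative state, and EpiSC are lines in the later, primed state. Promoters of widely expressed genes tend to be open in all of these cells, whereas distal elements such as enhancers are opened and closed as cells move between states. A peak list records where signal stood above a threshold, so absence from a list is not a measurement of closed chromatin.

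List length differed between libraries and bears on every count below. The Rd2_AFX lists held 11252 and 10719 peaks, the EpiLC lists 10563, 23608, 7469 and 26045, and the Rd2_ES lists 471 and 2576. First-set lists were shortest in an ES library and reached 31263 peaks in an FS1 library. Overlaps are therefore given for the lists as deposited and at equal list length, where each first-set list keeps its peaks of highest −log10 p up to the length of the shortest list. The selection itself moved with list length. With the Rd2_AFX and EpiLC lists all cut to 7469 peaks, 385 regions met the same rule and overlapped only 59 of the 144, and without one or the other Rd2_AFX library 1071 or 1096 did. Without EpiLC library 2 or 4, which had the longest lists, 269 or 270 regions met it. With peaks of −log10 q from 3 upwards, 42 did. Over the 385 regions the mean overlap at equal first-set list length was 14.7% in ES, 41.3% in FS and 37.2% in EpiSC libraries, so the low ES values given below belong to the 144 regions as selected. The depth in reads is not known from peak lists. Defining genes of cell types could not be checked as expression, since only open regions were measured.

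Most of the 144 regions lay away from promoters, but 16 overlapped the 250 bases upstream of an annotated transcript start. Together these covered 22 such windows of 20 genes. Such windows were overlapped by 11.1% of the 144 regions, 28.2% of all 35442 union regions and 64.7% of the other regions in both Rd2_AFX lists. The 6 windows shown are those of protein-coding genes that no annotated gene span overlaps, and they are printed because they are the places where a region without EpiLC peaks meets a promoter that can be read base by base. Sequences run 5′ to 3′ on the gene's strand up to the base before the start, from RefSeq on GRCm38.p6, the assembly family of the deposited mm10 coordinates, and capitals mark the bases inside the region.
Ddx52 (chr11:83941840-83942089, plus strand): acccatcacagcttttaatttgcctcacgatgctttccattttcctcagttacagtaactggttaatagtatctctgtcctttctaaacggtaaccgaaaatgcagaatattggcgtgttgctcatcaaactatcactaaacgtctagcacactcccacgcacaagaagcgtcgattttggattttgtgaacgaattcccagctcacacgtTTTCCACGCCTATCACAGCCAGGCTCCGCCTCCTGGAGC
Ctnnbl1 (chr2:157737151-157737400, plus strand): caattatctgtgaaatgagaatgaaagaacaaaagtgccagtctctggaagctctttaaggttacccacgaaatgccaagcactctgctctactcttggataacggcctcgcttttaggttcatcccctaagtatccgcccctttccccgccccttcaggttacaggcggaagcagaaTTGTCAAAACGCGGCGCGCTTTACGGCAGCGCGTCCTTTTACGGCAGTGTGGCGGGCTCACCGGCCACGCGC
Sh3bp5l (chr11:58330457-58330706, plus strand): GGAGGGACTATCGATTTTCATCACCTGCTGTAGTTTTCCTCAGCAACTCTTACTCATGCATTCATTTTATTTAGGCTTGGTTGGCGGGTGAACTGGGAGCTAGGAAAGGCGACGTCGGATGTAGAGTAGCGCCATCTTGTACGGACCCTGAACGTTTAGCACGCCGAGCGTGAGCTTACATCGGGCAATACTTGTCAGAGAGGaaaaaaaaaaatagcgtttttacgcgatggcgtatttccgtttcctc
H2-Aa (chr17:34287824-34288073, minus strand): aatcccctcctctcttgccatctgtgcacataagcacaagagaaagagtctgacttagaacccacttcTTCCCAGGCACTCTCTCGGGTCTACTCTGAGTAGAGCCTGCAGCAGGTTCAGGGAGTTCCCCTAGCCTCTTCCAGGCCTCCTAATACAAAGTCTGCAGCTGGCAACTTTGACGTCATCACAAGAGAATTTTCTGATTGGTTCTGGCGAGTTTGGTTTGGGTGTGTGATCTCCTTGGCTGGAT
Ift43 (chr12:86082311-86082560, plus strand): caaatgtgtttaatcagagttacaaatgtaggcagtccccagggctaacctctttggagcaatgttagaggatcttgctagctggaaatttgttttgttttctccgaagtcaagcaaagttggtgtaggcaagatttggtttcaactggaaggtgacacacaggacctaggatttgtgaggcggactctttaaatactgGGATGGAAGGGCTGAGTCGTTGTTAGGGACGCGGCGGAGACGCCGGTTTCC
Leng9 (chr7:4149873-4150122, minus strand): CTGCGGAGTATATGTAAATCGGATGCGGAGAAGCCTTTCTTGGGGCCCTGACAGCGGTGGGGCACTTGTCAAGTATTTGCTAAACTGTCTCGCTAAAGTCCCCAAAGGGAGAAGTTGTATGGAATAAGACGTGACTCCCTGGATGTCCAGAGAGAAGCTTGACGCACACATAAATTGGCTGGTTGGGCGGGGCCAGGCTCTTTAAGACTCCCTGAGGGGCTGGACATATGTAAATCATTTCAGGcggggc

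Coverage of these promoters was uneven. The region at Leng9 covered 244 of the 250 bases, the one at Sh3bp5l 203 and the one at H2-Aa, which encodes a chain of an MHC class II antigen-presenting molecule, 182. The Sh3bp5l region also covered 214 bases of the window of Zfp672, a gene 0.008 kb away on the other strand. At Ctnnbl1, which encodes a nuclear protein associated with the splicing machinery, 72 bases were covered. At Ift43, a component of the transport complex of cilia, 51 were covered, and at Ddx52, a DEAD-box RNA helicase, 39 were covered, in each of these 3 promoters at the end next to the start. The letters GGGCGG, the core of a GC box, occurred on either strand in 8 of the 22 windows (36.4%), against 32.7% of all 32851 promoter windows of the same length. In 6 of these 8 windows a match lay within the bases covered by the region. CATTCC, a core letter pattern bound by TEAD factors, occurred in 1 window (4.55%), against 12.6% of all, and in 0 windows within the covered bases. The percentages refer to full windows. The AP-1 pattern TGANTCA, the octamer ATGCAAAT and the E-box CACGTG occurred in 0 of 22, against 6.75%, 1.6% and 6.02% of all windows. Matches are letters in a window and not measured binding, and 22 windows from 16 regions share bases, so no test was made.

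These 6 promoter regions had peaks in first-set EpiSC and FS lists as deposited, but few at equal list length. The Ctnnbl1 region had a peak in 7 of 9 EpiSC lists, 4 of 6 FS lists and 0 of 3 ES lists as deposited. The H2-Aa region had one in 6 EpiSC, 2 FS and 0 ES lists, and the Ift43 region in 5 EpiSC, 5 FS and 0 ES lists. The Sh3bp5l region was found in 5 EpiSC, 1 FS and 0 ES lists and the Leng9 region in 4 EpiSC, 2 FS and 0 ES lists. The Ddx52 region was the exception, with peaks in 2 EpiSC, 2 FS and 1 ES list. Its rank in Rd2_AFX also differed between libraries, at percentiles of 89.7 and 44.6. At equal list length the Ift43 region was in 3 EpiSC and 2 FS lists. The Ctnnbl1 region was then in 1 FS list, the H2-Aa region in 1 EpiSC list and the Ddx52 region in 1 ES list only. The Sh3bp5l and Leng9 regions were in no first-set list at that length.

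The 144 regions were mostly modest peaks of the Rd2_AFX lists. The authors' fold enrichment of these peaks ranged from 3.28 to 7.02 with a median of 4.2, and their −log10 p from 4 to 11.3 with a median of 5.39. The rank of a region was taken as the mean percentile of its −log10 p over both Rd2_AFX lists, where 100 is the strongest peak. That rank ran from 1.88 to 95.3 with a median of 38.7. It exceeded 50 in 39 regions and 80 in 6, and 23 regions stood above 50 in both libraries. Regions just outside the selection had similar ranks, since the 260 regions with peaks in both Rd2_AFX lists and exactly 1 EpiLC list had a median of 39.2. The 1866 regions with a peak in 1 Rd2_AFX list and no EpiLC list had a median of 18, and the 4333 regions in both Rd2_AFX and all 4 EpiLC lists one of 69.1.

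**Figure D1:**
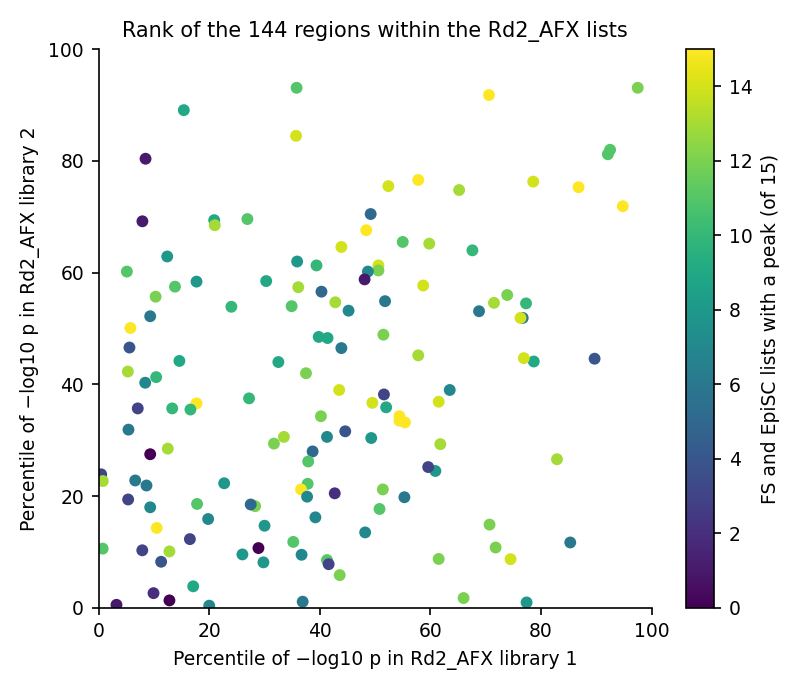
Each point is one of the 144 regions, placed by the percentile of its −log10 p in Rd2_AFX library 1 (x axis) and library 2 (y axis), and coloured by the number of the 15 first-set FS and EpiSC lists, as deposited, that hold a peak there. The regions spread over the plot, 23 of them above the 50th percentile on both axes, and many ranked high in one library and low in the other.

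Regions were also narrow. Their median width was 252 bp, from 112 to 903 bp, against 645 bp for the other 7375 regions with peaks in both Rd2_AFX lists and 588 bp for the mirror set of 495 regions with peaks in all 4 EpiLC lists and in no Rd2_AFX list. At least 1 Rd2_AFX peak was shorter than 150 bp in 73 regions, and both were in 20. An EpiLC peak lay within 1 kb of 15 regions and within 10 kb of 69, and the median distance to the nearest EpiLC peak was 10.8 kb. The closest case was in the span of Nfix, a transcription factor gene, where the EpiLC peak began 28 bp away.

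Position relative to genes set the 144 regions apart from other Rd2_AFX regions in the description. Only 26 regions (18.1%, exact binomial interval 12.1 to 25.3%) had a protein-coding gene beginning or ending no more than 1 kb away, against 70.2% of the other regions in both Rd2_AFX lists, 39.4% of the mirror set and 35.1% of all 35442 union regions. The interval covers counting error only. Moving all gene ends by 1 Mb, as a check on gene density, gave 2.78% for the 144 regions, 6.41% for the other Rd2_AFX regions and 5.66% for the mirror set. The interior of genes, more than 1 kb from either end, held 57 regions (39.6%). This compares with 18.2% of the other Rd2_AFX regions, 27.3% of the mirror set and 31.9% of all union regions. Another 42 regions (29.2%) lay over 20 kb from any protein-coding gene, against 5.46%, 19.8% and 18.9% of the same 3 sets. Over 100 kb away lay 18 (12.5%), against 1.78%, 6.67% and 7.42%. The gene table gives whole spans, so exons, introns and UTRs were not told apart. Of the 385 regions from lists of equal length, 41.0% had a gene end within 1 kb. Peak width and rank differed between these sets as well, and their part in the difference of position was not tested.

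**Figure D2:**
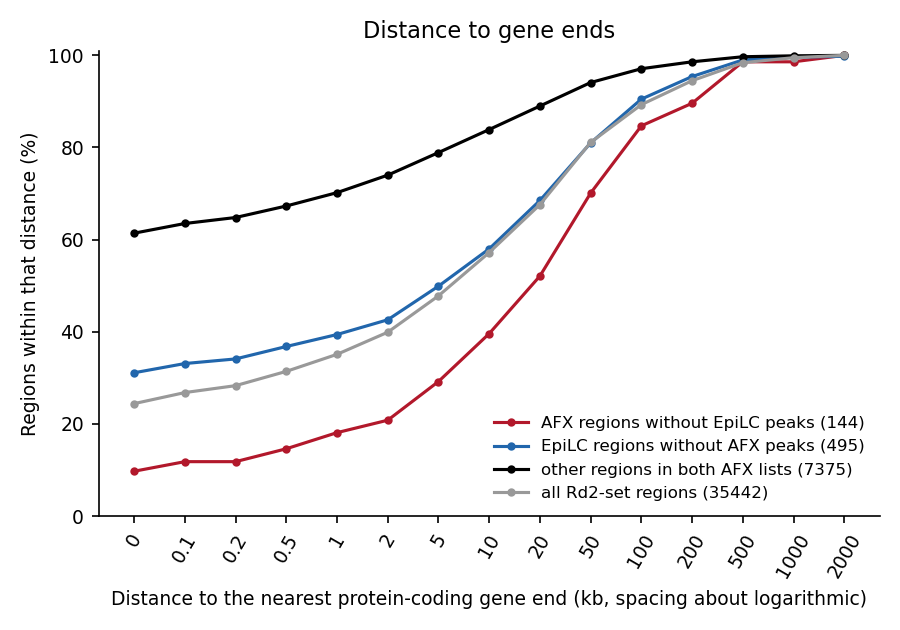
Cumulative percent of regions (y axis) within a given distance of the nearest protein-coding gene end (x axis, kb, spacing about logarithmic) for the 144 AFX regions without EpiLC peaks, the 495 EpiLC regions without AFX peaks, the other 7375 regions in both Rd2_AFX lists and all 35442 Rd2-set regions. The curve of the 144 regions is the lowest up to 200 kb, passing 18.1% at 1 kb where the other Rd2_AFX regions reach 70.2%.

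Chromosome 2 held the most regions, 19 (13.2%), against 8.37% of the other Rd2_AFX regions. The Y chromosome held 2 of the 144, although only 10 of all union regions lay there. Y peaks numbered 5 and 6 in the Rd2_AFX lists, 0, 2, 2 and 4 in the EpiLC lists and 0 in both Rd2_ES lists, against 27 to 84 in first-set lists. The strongest of all 144 regions was one of these, chrY:259082-259371, with percentiles of 97.5 and 93.1 and a fold of 7.02 and 6.26. It had first-set peaks in 3 of 3 ES, 6 of 6 FS, 3 of 3 EpiSC_AF and 3 of 3 EpiSC_AFX1 lists and in 0 of 3 EpiSC_AFX2 lists. The other Y region, chrY:90729058-90729321, was in 1 ES list, 5 FS lists and 7 EpiSC lists. The few Y peaks of the Rd2 ES and EpiLC lists move with the selection of these 2 regions, and their part in it was not tested.

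The first-set libraries, which the selection did not use, were examined for peaks at the same places. With the lists as deposited, EpiSC_AFX2 libraries overlapped 74.3%, 83.3% and 74.3% of the 144 regions (77.3% ± 5.21, SD, n = 3). EpiSC_AFX1 libraries overlapped 62.5%, 73.6% and 86.8% (74.3% ± 12.2, n = 3). EpiSC_AF libraries overlapped 36.1%, 62.5% and 57.6% (52.1% ± 14, n = 3). The EpiSC_AF values lay at or below the lowest AFX value, and the AF library with the shortest list gave the lowest of them.

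The FS groups differed from each other. FS1 libraries overlapped 71.5%, 66.7% and 77.1% of the regions (71.8% ± 5.21, n = 3), within the range of the AFX libraries. FS2 libraries overlapped 58, 48 and 47 of the 144 regions (35.4% ± 4.22, n = 3), and their lists were between 11796 and 14147 peaks long against 23883 to 31263 for FS1. ES libraries overlapped 4.17%, 6.94% and 7.64% (6.25% ± 1.84, n = 3). Every FS and EpiSC library was above every ES library. The same held over all 35442 union regions, at 27 to 55.3% in FS, 36.2 to 57.6% in EpiSC and 16.2 to 20% in ES. The other 7375 regions in both Rd2_AFX lists had higher means, 87.7% in FS, 96% in EpiSC and 55.5% in ES.

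The order of FS1 and FS2 changed with list length. At equal list length FS1 libraries overlapped 19.4%, 18.8% and 20.1% of the regions and FS2 libraries 31.2%, 27.1% and 20.1%. FS2 was thus above FS1 here, the reverse of the lists as deposited, with 1 FS2 library at the level of the highest FS1 library. EpiSC_AFX1 libraries each overlapped 27.8%, EpiSC_AFX2 libraries 20.1%, 24.3% and 20.1%, and EpiSC_AF libraries 16%, 17.4% and 13.9%. All 6 AFX libraries lay above all 3 AF libraries. ES libraries overlapped 2.78%, 6.94% and 6.25%, below every other library.

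At equal length the FS mean was 22.8% ± 5.13 (n = 6) and the EpiSC mean 21.7% ± 5.42 (n = 9). The FS and EpiSC values overlapped in part, as the 3 EpiSC_AF libraries lay below every FS library and 1 FS2 library, at 31.2%, lay above every EpiSC library. These levels were near those of Rd2 regions at large, since all 35442 union regions gave an FS mean of 20% and an EpiSC mean of 20.8%. For ES the 144 regions gave 5.32% ± 2.23 (n = 3) and all union regions 16%. The other 7375 regions in both Rd2_AFX lists were overlapped far more, with means of 63.5% in FS, 68.5% in EpiSC and 51.3% in ES. No p is given for these percentages because they are scores over regions chosen with these data known.

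**Figure D3:**
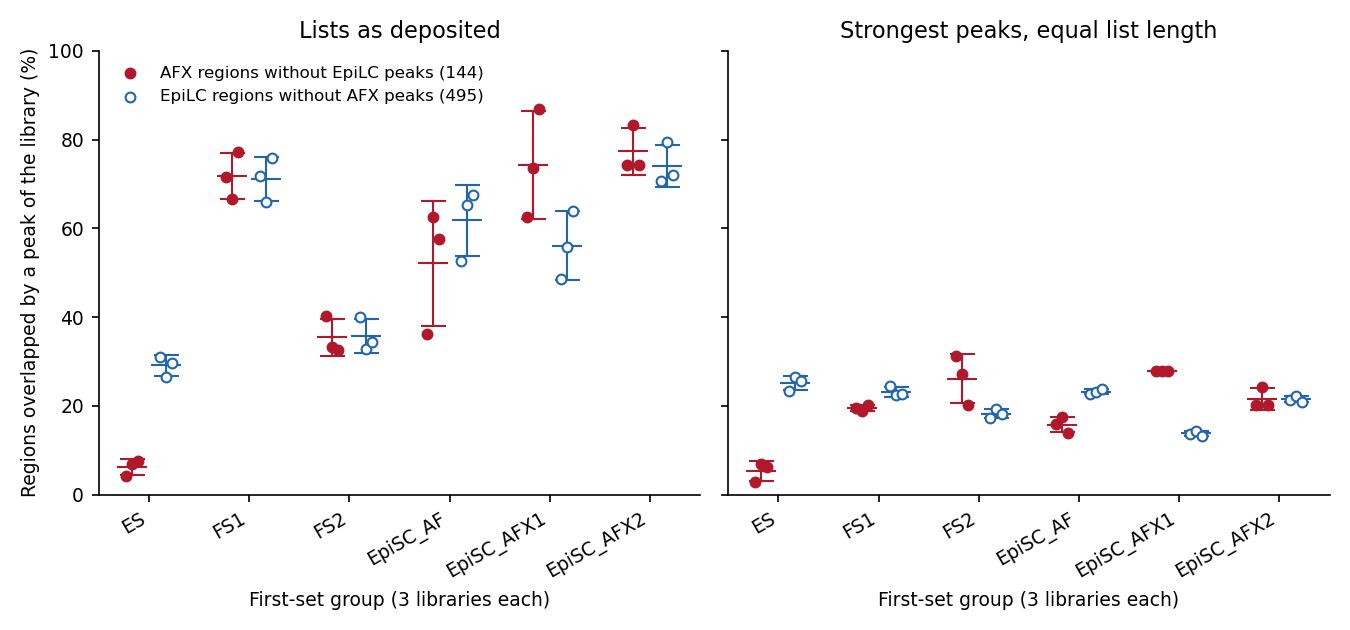
Percent of regions overlapped by a peak of each first-set library (points, y axis) with the mean and SD of each group of 3 libraries, for the 144 AFX regions without EpiLC peaks (filled) and the 495 EpiLC regions without AFX peaks (open), in the lists as deposited (left) and at equal list length (right). The filled ES points lie between 2.78% and 7.64% in both panels, below the open ES points, and the filled EpiSC_AFX1 points lie above the open ones at equal length.

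The mirror set of EpiLC regions showed where the 144 regions differed from a set chosen the other way round. At equal length ES libraries overlapped 23.4 to 26.5% of the mirror set, which was 19.2 to 20.7 percentage points more than of the 144 regions in the same libraries. EpiSC_AFX1 libraries went the other way, overlapping the 144 regions 13.4 to 14.4 points more often than the mirror set. EpiSC_AFX2 libraries differed by -1.28 to 2.08 points, with both signs. The difference, 144 regions minus mirror set, was -9.95 to -5.87 points in EpiSC_AF libraries, -5 to -2.49 points in FS1 libraries and 1.96 to 14.1 points in FS2 libraries. With the lists as deposited the differences were -0.189 to 1.33 points in FS1 and -1.7 to 0.606 points in FS2, so the FS groups differed only at equal length. They were then 2.18 to 3.94 points in EpiSC_AFX2, 14 to 22.8 in EpiSC_AFX1, -16.6 to -2.75 in EpiSC_AF and -26.9 to -19.5 in ES. EpiSC_AFX1, EpiSC_AF and ES thus kept their signs in both versions of the lists. The mirror regions were wider, and the 2 rules were unequal. The 144 regions had to be absent from 4 EpiLC lists of up to 26045 peaks. The mirror set had to be absent from 2 Rd2_AFX lists of up to 11252 peaks. The part of width and of the unequal rules in these differences was not tested.

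Region by region, the commonest pattern was peaks in EpiSC and FS lists with none in ES. With the lists as deposited, 112 of 144 regions (77.8%) had a peak in at least 1 EpiSC and 1 FS list and in no ES list, against 25.3% of the other Rd2_AFX regions. Another 9 (6.25%, against 0.461%) had peaks in EpiSC lists only and 0 in FS lists only (against 0.0271%). At least 1 ES list held a peak at 20 regions (13.9%, against 74.2%). Only 3 regions (2.08%) had no first-set peak, against 0 of the other Rd2_AFX regions. Few regions were found throughout, as 33 (22.9%) were in all 9 EpiSC lists against 83.2% of the other Rd2_AFX regions, and 21 (14.6%) in all 6 FS lists against 60.3%. All 15 FS and EpiSC lists held a peak at 12 regions (8.33%, against 57.5%). At 10 of them there was no ES peak, a share of 6.94% near the 7.32% of the other Rd2_AFX regions. All 6 AFX lists held a peak at 61 regions (42.4%, against 89.7%), and 3 of these had no EpiSC_AF peak (2.08% of the 144, against 0.176%).

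At equal length 41 regions (28.5%) had no first-set peak, against 3.46% of the other Rd2_AFX regions. Peaks in EpiSC lists only were found at 24 regions (16.7%, against 3.43%) and in FS lists only at 11 (7.64%, against 2.1%). Another 51 regions (35.4%, against 20.8%) had peaks in both without ES, and 17 (11.8%, against 70.2%) in at least 1 ES list. More regions were found only in EpiSC than only in FS, as among the other Rd2_AFX regions (253 and 155), and EpiSC contributed 9 lists and FS 6.

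**Figure D4:**
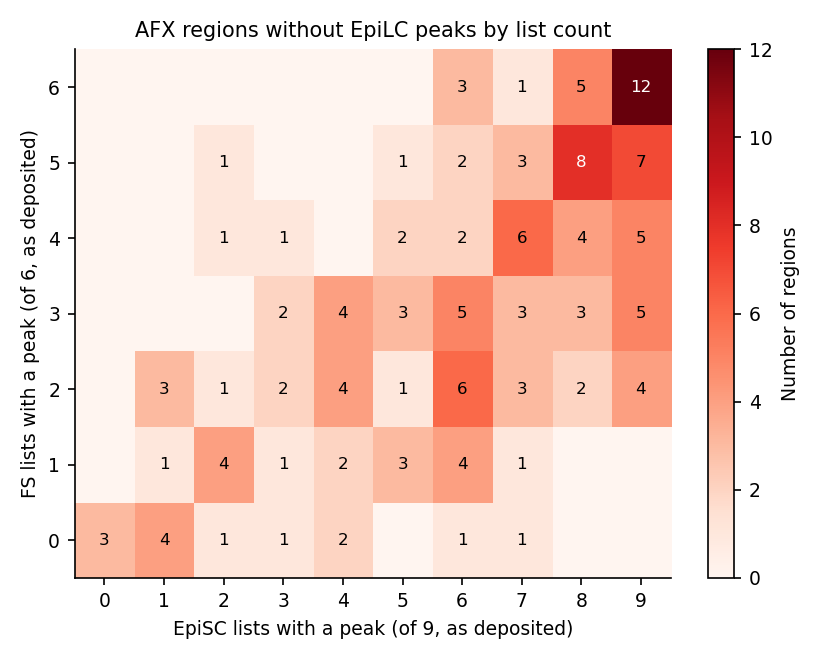
Number of the 144 regions (cell values and colour) by how many of the 9 EpiSC lists (x axis) and of the 6 FS lists (y axis) hold a peak there, lists as deposited. Counts are highest in the upper right corner, where 12 regions had peaks in all 15 lists, and 3 regions at the origin had none.

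**Figure D5:**
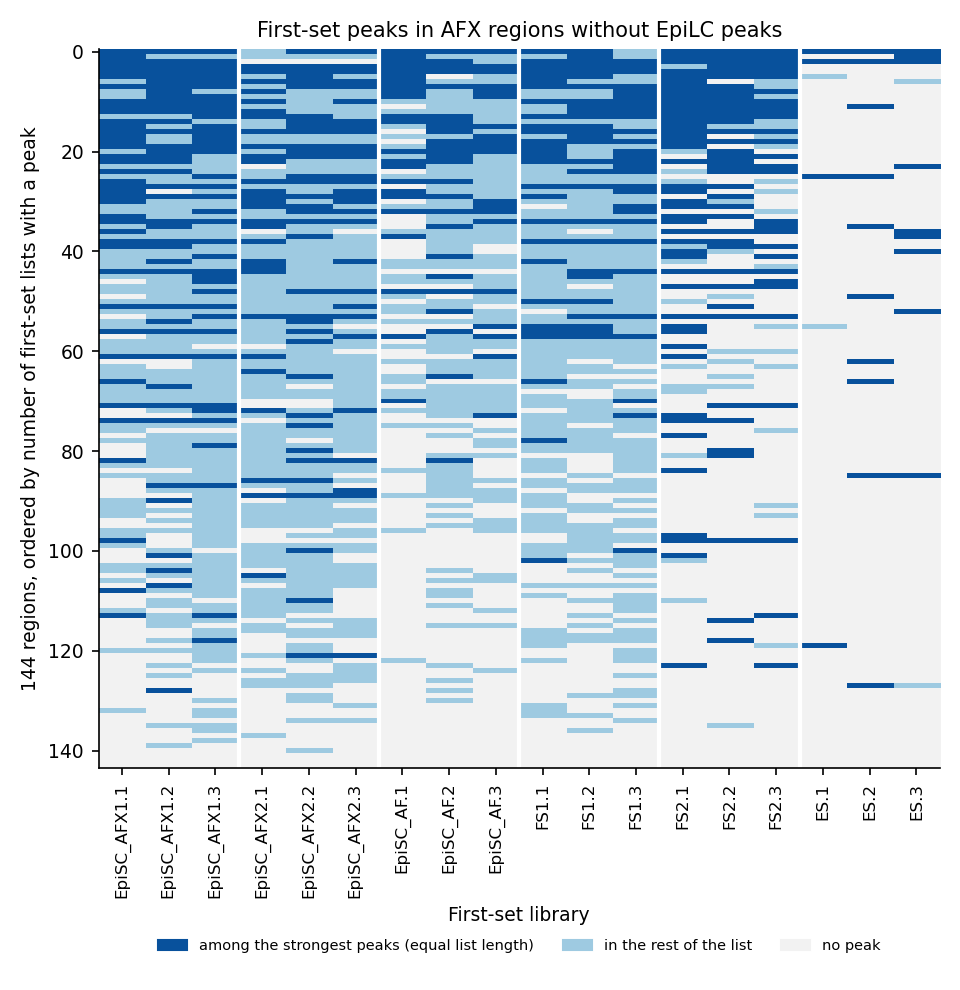
First-set peaks in each of the 144 regions (rows, ordered by the number of first-set lists with a peak) in each of the 18 libraries (columns), where dark blue marks a peak among the strongest of its list (equal list length), light blue a peak in the rest of the list and grey no peak. The 3 ES columns are nearly empty, and light blue is common in the EpiSC and FS1 columns and rare in the FS2 columns.

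Each region was then tested for a difference in how many libraries held a peak, with a 2-sided Fisher's exact test and Benjamini-Hochberg adjustment over all Rd2 union regions with a peak in the libraries compared. At equal length no region passed an adjusted p of 0.05 in any of 3 comparisons. Between EpiSC and ES the lowest adjusted p was 0.119, since 9 libraries against 3 cannot give an exact p below 0.00455. Unadjusted p-values under 0.05 were found for 8 of 92 tested regions with more EpiSC peaks (8.7%), close to the 8.96% of all regions tested, and for 1 region with more ES peaks, against 4.31% of all. Leaving out any 1 of the 12 libraries gave 2 to 7 regions in both directions together in place of 9, with 2 or 3 when an ES library was left out. Over all regions tested that count fell as well, to between 798 and 1049 in place of 2044.

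Both regions that had peaks in all 9 EpiSC lists and no ES list at equal length were among the strongest of the 144, and 2.57% of all regions tested met that rule. The first, chr13:57732339-57732640, lies inside Spock1, which encodes a secreted proteoglycan, 176 kb from its nearer end. It was in all 6 FS lists too (exact p = 0.00455 against ES for EpiSC, adjusted p = 0.119). The second, chr7:135735660-135736260, lies 19.2 kb from Mki67, which encodes the proliferation antigen Ki-67, and was in 5 of 6 FS lists. Regions in 8 of 9 EpiSC lists and no ES list lay inside Gse1, 33 kb from Acot11, which encodes an acyl-CoA thioesterase, and 322 kb from Plod2, which encodes a collagen lysyl hydroxylase. The 1 region with more ES peaks, 38.7 kb from Gtdc1, was in 2 of 3 ES lists and 0 of 9 EpiSC lists.

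With the lists as deposited, 27 of 141 tested regions (19.1%) had peaks in all 9 EpiSC lists and no ES list, which passed at an adjusted p of 0.044 by Fisher's exact test, against 10.2% of all regions tested. The 3 ES lists were shorter than every EpiSC list, and no region was called at equal length.

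Between FS and ES, 15 of 79 tested regions (19.0%) had more FS peaks at an unadjusted p under 0.05 at equal length, against 5.34% of all regions tested, and 0 had more ES peaks, against 2.18%. The lowest adjusted p was 0.31 by Fisher's exact test, as 6 libraries against 3 cannot give an exact p below 0.0119. Leaving out any 1 of the 9 libraries gave 5 to 9 regions in place of 15. Over all regions tested, both directions together, it gave 635 to 891 in place of 1126. A region was tested only with a peak in an FS or ES list, and 17 of the 144 had one in an ES list. The shares of tested regions depend on that filter. Without it, 15 of the 144 regions and 1126 of all 35442 passed an unadjusted p of 0.05 by Fisher's exact test, both directions together. Peaks in all 6 FS lists and no ES list were found at 5 regions, against 2.38% of all tested. These were the Spock1 region and regions inside Med16, which encodes a Mediator subunit, and Ak8, an adenylate kinase, 109 kb from Npvf, which encodes a neuropeptide precursor, and 42.5 kb from Pkdcc, which encodes a secreted kinase. As deposited, 16 of 132 regions (12.1%) were in all 6 FS lists and no ES list, against 5.59% of all tested.

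Between EpiSC and FS no region passed adjustment, and the lowest adjusted p over all Rd2 regions was 0.165. At an unadjusted p under 0.05, 2 of 98 regions had more EpiSC peaks (2.91% of all regions tested did) and 2 more FS peaks (2.29% of all). The 2 with more EpiSC peaks, 262 kb from Lrp1b and 92.4 kb from Zfp804b, were each in 6 of 9 EpiSC lists and 0 of 6 FS lists (adjusted p = 0.844, Fisher's exact test). With the 6 AFX libraries alone as EpiSC, the count at an unadjusted p under 0.05 was 0 in place of 4. Over all regions tested it was then 119 in place of 815. Those with more FS peaks were the Pkdcc region, in 6 of 6 FS and 4 of 9 EpiSC lists, and the region over the shared start of Mrpl43 and Twnk, genes of the mitochondrial ribosome and the mitochondrial DNA helicase, in 3 of 6 FS and 0 of 9 EpiSC lists.

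The other strong regions by rank that are reported here were mixed in their first-set peaks. A region inside Pip5kl1 (chr2:32581545-32581770), related to phosphoinositide kinases, had percentiles of 92.1 and 81.2 and was in 3 FS1, 0 FS2, 3 EpiSC_AF, 2 EpiSC_AFX1, 3 EpiSC_AFX2 and 0 ES lists.

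The Mki67 region had percentiles of 94.8 and 71.9 and the Spock1 region 70.6 and 91.8. Both were in every FS and EpiSC list as deposited and in no ES list, and the nearest EpiLC peaks lay 18.8 and 143 kb away. A region 6.42 kb from Atg7 (chr6:114636580-114636702), which encodes an enzyme of autophagy, was in all 15 lists and in 1 ES list. The Npvf region (chr6:50763168-50763391) was in 8 EpiSC, 6 FS and 0 ES lists.

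A region inside Mycl (chr4:122998635-122998821), which encodes the L-Myc transcription factor, had percentiles of 65.2 and 74.8 and was in 8 EpiSC, 5 FS and 0 ES lists. A region inside Pcnx2 (chr8:125779060-125779186) was in all 18 first-set lists, ES included, and so was not limited to EpiSC and FS. The top 10 by rank thus held 3 regions, at the Y locus, Pcnx2 and Atg7, that were each in all 6 FS lists and in at least 1 ES list, as well as the Ddx52 promoter region in 1 ES list.

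Regions with peaks in EpiSC lists only, as deposited, made up 6.25% of the 144 and 0.461% of the other Rd2_AFX regions. Those in at least 5 EpiSC lists are described here. The region chr17:40583994-40584253, 4.45 kb from Gm44501, was in 2 EpiSC_AF, 2 EpiSC_AFX1 and 3 EpiSC_AFX2 lists. Its rank was low, with percentiles of 9.32 and 18, and it was in 0 lists at equal length. The region chr16:58058039-58058339, 303 kb from Col8a1, was in 1 EpiSC_AF, 3 EpiSC_AFX1 and 2 EpiSC_AFX2 lists, with percentiles of 76.7 and 51.9, and in 1 EpiSC list at equal length. The 3 regions without any first-set peak lay 32.6 kb from Bdh1, which encodes a ketone body dehydrogenase, inside Stam2, an endosomal sorting gene, and inside Nfix. Their mean percentiles were 19.8, 18.4 and 7.07.

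Regions seldom clustered at genes. Counting each gene span with 20 kb on either side, 172 protein-coding genes had 1 region and 7 had 2. Dpm2, Fam102a, Pip5kl1 and St6galnac4 are neighbours on chromosome 2 that share a pair of regions 5.67 kb apart. The region at the Pip5kl1 start, chr2:32575704-32575874, was in 8 EpiSC, 6 FS and 1 ES list as deposited. Prickle1, a gene of planar cell polarity, had 2 regions 70.8 kb apart in its span, each in 9 of 9 EpiSC lists, with 5 and 4 of 6 FS lists and 0 ES lists. Dusp8, which encodes a MAP kinase phosphatase, had 1 region in its span, in 7 EpiSC and 4 FS lists, and 1 region 8.26 kb outside it, in 1 EpiSC and 2 FS lists. The pair at Lzts2 was the Mrpl43 and Twnk region and a region 40 kb from it. In all, 5 pairs of neighbouring regions lay within 100 kb of each other.

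Few of the listed genes of pluripotency, signalling and other lineages had one of the 144 regions, and few of all protein-coding genes did. A count of 1 listed gene is too small to compare the 2 shares. Of 163 genes in 14 lists covering naive, formative, primed and core pluripotency, Nodal, FGF and Wnt signalling and other lineages, 1 (0.613%) had a region in its span or within 20 kb, against 179 of 21887 protein-coding genes (0.818%). Of the same 163 genes, 154 had some Rd2 union region there and 70 had one of the other regions in both Rd2_AFX lists. The naive (15 genes), formative (12), primed and mesendoderm (16) and core pluripotency (8) lists each had 0 genes with one of the 144 regions. The single gene was Il17rd, which encodes a feedback inhibitor of FGF signalling, with a region 31.9 kb inside the gene (chr14:27070872-27071028). Its percentiles were 68.8 and 53.1, and it was in 4 EpiSC, 2 FS and 0 ES lists as deposited and in none at equal length.

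The 144 regions differed among themselves in how often first-set lists held them. The 39 regions with a mean percentile over 50 were overlapped at equal length by 28.2 to 53.8% in EpiSC libraries, 33 to 53.8% in FS libraries and 5.13 to 7.69% in ES libraries. The 105 weaker regions were overlapped by 8.57 to 22.9%, 11.4 to 22.9% and 0.952 to 7.62%. The EpiSC ranges of stronger and weaker regions did not overlap, nor did the FS ranges, while the ES ranges did. Strength in Rd2_AFX therefore went with peaks in FS as well as in EpiSC.

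Regions also differed by their distance from genes. At equal length the 42 regions over 20 kb from a gene were overlapped by 14.3 to 40.5% (median 28.6%) in the 9 EpiSC libraries, and the 26 regions within 1 kb of a gene end by 3.85 to 23.1% (median 11.5%). In FS libraries the medians were 17.9% and 13.5%, and in ES libraries 9.52% and 3.85%. The 57 regions in gene interiors had medians of 22.8% in EpiSC, 23.7% in FS and 3.51% in ES. Ranges overlapped in each of these cases except ES, where the distal regions (4.76 to 11.9%) lay above those near gene ends (3.85% in each library, 1 region of 26). Peak length made little difference, as the 73 regions with an Rd2_AFX peak under 150 bp and the 71 without had EpiSC medians of 20.5% and 22.5% and FS medians of 22.6% and 21.1%.

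Where a first-set list held a peak in one of these regions, that peak was of middling strength. Its median percentile of −log10 p within the list lay between 41.0 and 63.6 over the EpiSC libraries, between 46.2 and 65.7 over the FS libraries and between 38.3 and 61.1 over the ES libraries. For the other regions in both Rd2_AFX lists the same medians were 71.9 to 83.8, 61.3 to 84.5 and 62.2 to 66.3. The ranges of the 144 regions lay below those of the other Rd2_AFX regions in EpiSC and ES libraries. The FS ranges overlapped, and in FS2 library 2 the 144 regions had the higher median, 65.7 against 61.3.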

How the data were processed

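ATAC-seq peaks of 26 mouse libraries were analysed. The submitters' processing notes name Trim Galore, Bowtie, Picard, MACS2 and build mm10, with no role stated; aligner settings, control and versions are not given in the sources used here. The authors deposited 1 broadPeak list per library, so peaks were called per sample. In each deposited list, column 7 is the authors' fold enrichment, a ratio, column 8 their −log10 p and column 9 their −log10 q. The shortest peak was 150 bp in the first set and 110 bp in the Rd2 set, and whether processing differed between the sets is not given in the sources used here. They served only for ranks, filters and descriptions inside a list. Depth in reads is unknown, and the number of libraries limits precision.

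Libraries were grouped by their source name, except Rd2_ES by title and Rd2_EpiLC by the cell type label. Overlapping or touching Rd2 peaks were merged, and any overlap of at least 1 bp was taken as presence. Presence in libraries was compared per region with a 2-sided Fisher's exact test in purpose-written code. Benjamini-Hochberg adjustment ran over all Rd2 union regions with a peak. The code was tested on simulated data, there against the Fisher's exact test of scipy 1.17.1. Percentages, positions and lists of genes were described without a test. Genes (21887 protein-coding) and 32851 promoter windows came from RefSeq GRCm38.p6. Alternatives were list length, the ranking column, a −log10 q of at least 3, overlap of at least 50% of the shorter interval, gene windows, EpiSC in AFX only, a replicate block and leaving out each library. Regions named were the top 10 by mean percentile, those in at least 5 EpiSC and no FS or ES list, those at genes with 2 regions or at list genes, those without first-set peaks, and those with an unadjusted p under 0.05 or at a printed promoter. The latter 2 kinds and the few neighbours of printed regions were chosen after their values were seen. One region of the top 10 is not reported here. The 144 regions, the gene lists and the motifs were chosen with earlier results of these data known.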

Additional observations from a re-analysis of the deposited data

How the results depend on the processing

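The number of regions depended strongly on the lists used. It was 144 as deposited, 385 with all Rd2_AFX and EpiLC lists cut to their 7469 strongest peaks (overlapping 59 of the 144) and 42 when every peak needed a −log10 q of 3 or more. Leaving out each library in turn gave 145 to 1096 regions, with 1071 and 1096 without an Rd2_AFX library and 269 and 270 without the EpiLC libraries of the longest lists. Over the 385 regions from lists of equal length, mean overlap at equal length was 14.7% in ES, 41.3% in FS and 37.2% in EpiSC libraries, and 41.0% lay within 1 kb of a gene end, against 5.32%, 22.8%, 21.7% and 18.1% for the 144. Of the 144, 29.2% lay within 5 kb of a gene end. With full lists the FS and EpiSC means were 53.6% and 67.9%, and 27 regions separated EpiSC from ES by Fisher's exact test. The cause of these shifts was not tested beyond the change of list length. Leaving out each first-set library gave 4.51 to 6.6% for ES, 21.1 to 23.6% for FS and 20.9 to 22.7% for EpiSC.

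At equal length 0 regions passed adjustment in the 3 comparisons under every library left out, other ranking, overlap rule and filter tried. The smallest possible exact p against ES, 0.00455 for EpiSC and 0.0119 for FS, left little room for an adjusted call. These counts of 0 are therefore no sign of stability. Their counts at an unadjusted p under 0.05 (9, 4 and 15) became 2 to 7 for EpiSC against ES, 2 to 6 for EpiSC against FS and 5 to 9 for FS against ES when a library was left out; fewer libraries also raise the smallest exact p. With EpiSC limited to the AFX libraries, 0 regions passed adjustment against ES or FS. The unadjusted count against FS was 0, with 119 over all regions tested. A replicate block on the label numbers, an exact test stratified by number, gave 0 adjusted calls and 6, 2 and 5 unadjusted ones. Over all regions tested the unadjusted calls were 978, 459 and 576. Stratifying raises the smallest exact p further, so the 0 adjusted calls say little. Same-numbered libraries of different groups did not deviate together in peak presence (mean correlation -0.000711, range -0.0194 to 0.0166), and the main test did not pair them. This cannot show whether libraries were prepared in numbered batches. A peak list holds no signal below its threshold, so absence from the EpiLC lists of 7469 and 10563 peaks says less than absence from the longer ones.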
